A study of Mus musculus with 6 samples.

Results

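Fatty acid oxidation and the genes under PPAR control were read here as 34 genes, chosen by name for their known roles, of 54418 genes in the count table. RNA came from mouse organoids, epithelial cells grown as small hollow tissues in a gel, of the line AKP, a name that the labels do not spell out. The labels give 3 libraries of genotype Control and 3 of genotype GATA6KO, and no treatment, time or animal age. The series title concerns GATA6 loss in colorectal cancer metastasis, and its design text describes organoids from mouse primary tumours and liver metastases that were transplanted again into the colon over repeated rounds. The labels do not say from which round the line came, where the lesion in Gata6 lies, or how many clones were pooled.

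Fatty acids enter a cell by diffusion and transporters, are activated to acyl-CoA, pass into mitochondria bound to carnitine, and are shortened there in a repeated cycle of dehydrogenation, hydration, a further dehydrogenation and thiolysis. The electrons go through the electron transfer flavoprotein to the respiratory chain, and the acetyl-CoA can be burned or, in liver and gut epithelium, turned into ketone bodies. PPAR-alpha, PPAR-delta and PPAR-gamma are nuclear receptors for fatty acids that bind DNA together with RXR, and the PGC-1 coactivators raise the output of many oxidation genes. In the intestine the pathway is known for fuelling stem cells and for responding to fasting and dietary fat.

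Libraries held 22973245 to 31328415 estimated counts. The targeted gene, Gata6, had 577, 669 and 840 counts in Control and 427, 489 and 247 in GATA6KO (log2 fold change -0.99, SE 0.25, edgeR adjusted p = 0.0486), so that transcript remained in each GATA6KO library. The median SD of a gene on the log2 scale was 0.0949 in Control and 0.279 in GATA6KO. The 8 epithelial markers summed to 10257 to 11209 counts per 1000000 counts (CPM) in Control and 7022 to 8091 in GATA6KO, with 4 of the 8 lower by the test below and 0 higher, and the part of that shift in the results was not tested. Fibroblast and endothelial markers summed to at most 0.7 CPM in a library, and the leukocyte marker Ptprc had 1 to 11 counts. The 5 hepatocyte markers summed to 0.567 to 0.797 CPM in Control and 0.535 to 2.59 in GATA6KO, and the 4 muscle markers to 1.05 to 1.93 and 3.28 to 4.66 CPM. Of these, Acta1 had 23, 35 and 57 counts in Control and 97, 142 and 109 in GATA6KO (edgeR adjusted p = 0.0324), and Alb had 13, 17 and 5 against 13, 78 and 31 and was not called. The other muscle markers, Ckm, Myh1 and Des, had at most 2 counts in any library. Among the other hepatocyte markers, Apoa1 had 2, 2 and 12 counts in Control and 3, 1 and 3 in GATA6KO. Apoc3, Ttr and Serpina1a had 0 counts in every GATA6KO library. Nothing in the labels says whether the replicates were separate cultures, so each p-value reflects how much these 6 libraries vary, and that variation may be technical.

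The coactivator Ppargc1a and the acyl-CoA synthetase Acsl1 fell, the thioesterase Acot1 and the kinase Pdk4 rose, and none of the 16 mitochondrial oxidation enzymes was called. Of the 34 genes, 31 had enough counts to be tested by edgeR's quasi-likelihood test, and 2 were higher and 2 lower in GATA6KO at an adjusted p under 0.05 (called, below). That is 12.9% of those tested, where 12.4% of all 14714 genes tested were called (6.92% higher and 5.47% lower), so the share was near the background. The median log2 fold change was -0.12 over the 31 genes and 0.02 over all genes. The other 27 had log2 fold changes above 0 in 6 cases and below 0 in 21, where all uncalled genes had 6615 above and 6276 below. GATA6KO replicate 1 did not share this lean. There 20 of the 31 genes tested lay above the Control mean, against 6 in replicate 2 and 7 in replicate 3. All 4 calls were lost when any of the Control libraries was left out, at adjusted p of 0.0617 to 0.119, and all 4 genes were also called when any of the GATA6KO libraries was left out. RNA from bulk cultures cannot tell fewer cells of a type from less RNA per cell.

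**Figure D1:**
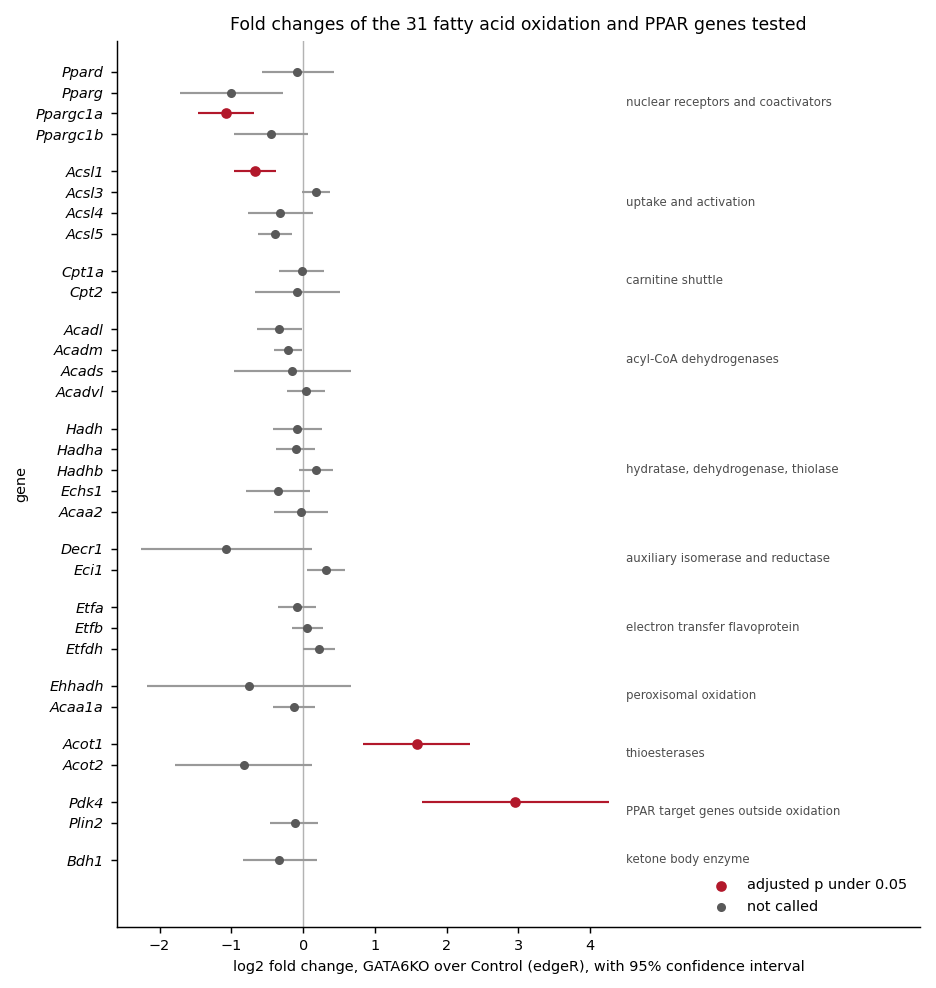
log2 fold changes (GATA6KO over Control) of the 31 genes tested, grouped by role, with 95% confidence intervals from edgeR's quasi-likelihood fit (not adjusted for the number of genes). The 4 called genes are in red: Ppargc1a and Acsl1 lie left of 0, Acot1 and Pdk4 right of it, and most enzymes of the oxidation cycle lie near 0.

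Among the regulators, Ppargc1a (ENSMUSG00000029167, chromosome 5, 51454250 to 51567726 of GRCm38, the mm10 assembly), which encodes the coactivator PGC-1-alpha, measured 19.8, 19.5 and 21.1 CPM in Control replicates 1 to 3 and 7.76, 11.0 and 9.87 CPM in GATA6KO replicates 1 to 3. Every GATA6KO library was below every Control library. The means were 20.2 ± 0.873 and 9.56 ± 1.67 CPM (SD, n = 3 each), a log2 fold change of -1.08 (SE 0.16, edgeR adjusted p = 0.0105). Its paralog Ppargc1b measured 8.50, 8.22 and 7.0 CPM in Control and 7.12, 4.62 and 5.67 CPM in GATA6KO. These groups overlapped, and the gene was not called (log2 fold change -0.45, 95% interval -0.96 to 0.07, adjusted p = 0.21).

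Pparg, the receptor of adipocyte and differentiated colonic epithelial programmes, measured 129, 135 and 150 CPM in Control and 101, 41.0 and 65.0 CPM in GATA6KO. All 3 GATA6KO libraries were below Control, and they differed among themselves more than Control did, with replicate 1 nearest to Control. The log2 fold change was -1.0 (SE 0.30, 95% interval -1.72 to -0.28), and the gene was not called by edgeR (adjusted p = 0.0751). It was called by DESeq2 (adjusted p = 0.00736) and by edgeR without GATA6KO replicate 1 (adjusted p = 0.011), and its adjusted p ran from 0.00736 to 0.229 over all alternatives. Over all genes, DESeq2 called 22.0%, and the edgeR test without GATA6KO replicate 1 called 28.8%.

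Ppard, the most widely expressed receptor of the family, measured 101, 94.7 and 99.0 CPM in Control and 127, 72.0 and 79.4 CPM in GATA6KO. Replicate 1 lay above and replicates 2 and 3 below the Control values, with a log2 fold change of -0.08 (95% interval -0.58 to 0.43, adjusted p = 0.83). Ppara, the receptor that drives oxidation in the fasted liver, had 5, 3 and 7 counts in Control and 8, 4 and 4 in GATA6KO, too few to test. Per kilobase of the principal transcript, the receptors in Control thus ran from 78.2 CPM for Pparg through 29.9 CPM for Ppard to 0.0544 CPM for Ppara.

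**Figure D2:**
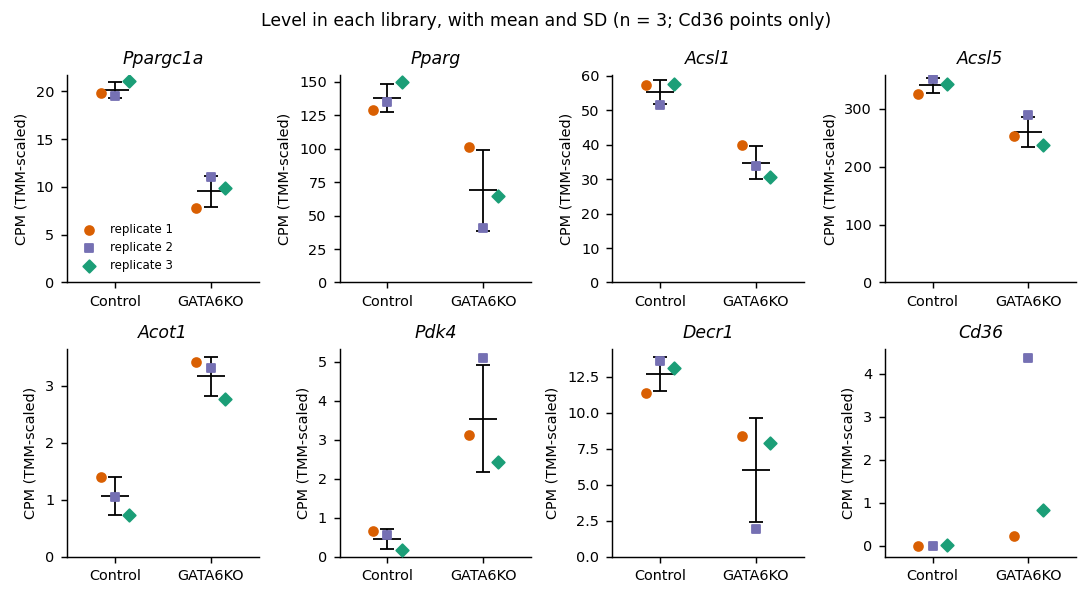
TMM-scaled CPM in each library for Ppargc1a, Pparg, Acsl1, Acsl5, Acot1, Pdk4, Decr1 and Cd36, with the mean and SD of 3 libraries (replicate 1 circle, replicate 2 square, replicate 3 diamond, and points only for Cd36, which has 0, 0 and 1 counts in Control). The groups do not overlap in any of these 8 genes, and the GATA6KO points of Pparg, Decr1 and Cd36 are spread widely. Groups did not overlap in 48.4% of the 31 genes tested and in 40.8% of all genes tested, so such separation is common.

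Of the genes that take up and activate fatty acids, Acsl1 changed. Acsl1 (ENSMUSG00000018796, chromosome 8, 46471037 to 46536051), the long-chain acyl-CoA synthetase tied to oxidation in many tissues, measured 57.2, 51.4 and 57.7 CPM in Control and 40.0, 33.7 and 30.6 CPM in GATA6KO. The groups did not overlap, with means of 55.5 ± 3.48 and 34.7 ± 4.79 CPM (SD, n = 3 each) and a log2 fold change of -0.67 (SE 0.12, edgeR adjusted p = 0.0194). With the replicate number as a block, a fit that called 5.62% of all genes, its adjusted p was 0.0501.

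Acsl5, the main synthetase of intestinal epithelium, was the most abundant of the 4 per kilobase in Control, at 80.2 CPM. It measured 326, 351 and 343 CPM in Control and 252, 289 and 238 CPM in GATA6KO, again without overlap. Its log2 fold change was -0.39 (95% interval -0.63 to -0.15, edgeR adjusted p = 0.0517), and it was called by DESeq2 (adjusted p = 0.00444) and by edgeR without GATA6KO replicate 2 (adjusted p = 0.018), a fit that called 15.5% of all genes. Acsl3, a synthetase of the endoplasmic reticulum and lipid droplets, measured 214 to 223 CPM in Control and 235 to 257 CPM in GATA6KO (log2 fold change 0.18, 95% interval -0.01 to 0.37). Acsl4, which prefers arachidonate, measured 120 to 123 CPM in Control and 125, 71.9 and 96.3 CPM in GATA6KO (log2 fold change -0.32, 95% interval -0.77 to 0.14).

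Cd36, a scavenger receptor that carries long-chain fatty acids, had 0, 0 and 1 counts in Control and 7, 133 and 25 counts in GATA6KO replicates 1 to 3. The counts were above Control in all 3 GATA6KO libraries, most of all in replicate 2, and did not pass the filter for testing. With no filter its edgeR adjusted p was 0.0903, and without GATA6KO replicate 1 it was 0.0124. It entered the latter fit only through the GATA6KO libraries, where it is high, so that value is no support for the difference. Cd36 is also a gene of macrophages, endothelium and fat. In the GATA6KO libraries Adgre1, a macrophage marker, had 4, 5 and 0 counts, the endothelial markers Pecam1 and Kdr had 7, 12 and 16 and 0, 0 and 1 counts, and the adipocyte marker Adipoq had 0 counts. Summed over their lists, leukocyte markers (6 genes) had 11.0 to 14.3 CPM in Control and 3.0 to 5.58 in GATA6KO, almost all from Cd68, and endothelial markers (4 genes) had 0.277 to 0.50 and 0.267 to 0.667 CPM. The 5 adipocyte markers had 4.47 to 5.27 CPM in Control and 18.7 to 84.3 in GATA6KO, almost all from Fabp4 in GATA6KO. Replicate 2 was the highest GATA6KO library for Fabp4, Acta1 and Alb, as for Cd36, and for 32.4% of all genes tested. No other marker of the adipocyte, muscle and hepatocyte lists with counts in GATA6KO was highest in replicate 2. Cidec, for example, had 3, 1 and 8 counts there, Des 1, 0 and 1, and Apoa1 3, 1 and 3. The part of other cell types in the Cd36 counts was not tested.

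The carnitine shuttle was measured at 2 steps. Cpt1a, the outer-membrane transferase that sets the rate of entry and is a classical PPAR target, measured 76.8, 68.4 and 70.5 CPM in Control and 83.9, 62.7 and 65.9 CPM in GATA6KO. The groups overlapped, and the log2 fold change was -0.02 (95% interval -0.33 to 0.29, edgeR adjusted p = 0.928). Cpt2, its inner-membrane partner, measured 40.7 to 42.4 CPM in Control and 55.5, 26.8 and 36.2 CPM in GATA6KO. GATA6KO replicate 1 was above and replicates 2 and 3 below every Control library, so the interval was wider (log2 fold change -0.08, 95% interval -0.67 to 0.51).

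The 4 acyl-CoA dehydrogenases, which open each cycle and differ in chain length, were all uncalled. Acadl, the long-chain enzyme, was the most abundant per kilobase in Control (69.7 CPM) and measured 130, 131 and 139 CPM in Control and 128, 98.9 and 91.8 CPM in GATA6KO (log2 fold change -0.33, 95% interval -0.65 to -0.01, edgeR adjusted p = 0.151). Acadvl, which acts on very long chains at the inner membrane, measured 69.5 to 75.8 CPM in Control and 68.4 to 85.1 CPM in GATA6KO (log2 fold change 0.04, 95% interval -0.22 to 0.30). The medium-chain enzyme Acadm measured 54.3, 54.7 and 57.0 CPM in Control and 49.3, 47.2 and 46.7 CPM in GATA6KO. Its groups did not overlap, at a log2 fold change of -0.21 (95% interval -0.41 to -0.02, edgeR adjusted p = 0.126). The short-chain enzyme Acads measured 48.6 to 49.4 CPM in Control and 69.2, 38.7 and 24.2 CPM in GATA6KO, so that its GATA6KO libraries lay on both sides of Control.

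The later steps of the cycle were also uncalled in all 5 genes. Echs1, the hydratase of short chains, measured 100, 104 and 113 CPM in Control and 109, 68.0 and 72.3 CPM in GATA6KO (log2 fold change -0.35, 95% interval -0.79 to 0.10). Hadh, the dehydrogenase of shorter chains, measured 98.9 to 103 CPM in Control and 78.9 to 116 CPM in GATA6KO (log2 fold change -0.08, 95% interval -0.42 to 0.26). Hadha and Hadhb encode the alpha and beta subunits of the trifunctional protein, which does the last 3 reactions on long chains, and their genes lie side by side on chromosome 5, with Hadha ending at 30155162 and Hadhb starting at 30155248. The log2 fold change was -0.10 (95% interval -0.38 to 0.17) for Hadha and 0.18 (95% interval -0.06 to 0.42) for Hadhb, which shares 23.3% of its 31-base words with other genes. The thiolase Acaa2 measured 42.9 to 46.9 CPM in Control and 37.8 to 55.0 CPM in GATA6KO (log2 fold change -0.03, 95% interval -0.40 to 0.35).

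Among the helper enzymes for unsaturated chains, Decr1 and Eci1 went apart in value, and neither was called. Decr1, the dienoyl-CoA reductase, measured 11.4, 13.6 and 13.1 CPM in Control and 8.39, 1.90 and 7.90 CPM in GATA6KO. All GATA6KO libraries were below Control, with replicate 2 far below the other 2 (log2 fold change -1.07, 95% interval -2.26 to 0.12, edgeR adjusted p = 0.197). Without GATA6KO replicate 2 it was called (adjusted p = 0.0361). Eci1, the enoyl-CoA isomerase, measured 29.2, 31.1 and 30.3 CPM in Control and 35.6, 42.6 and 34.7 CPM in GATA6KO, all above Control (log2 fold change 0.32, 95% interval 0.05 to 0.58, edgeR adjusted p = 0.114).

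The electron transfer flavoprotein, which takes the electrons of all the acyl-CoA dehydrogenases, was uncalled in each of its parts. Etfa, the alpha subunit and the most abundant of the 34 genes per kilobase in Control (96.4 CPM), measured 129, 140 and 134 CPM in Control and 141, 110 and 128 CPM in GATA6KO. Etfb, the beta subunit, measured 67.5 to 68.5 CPM in Control and 64.9 to 76.9 CPM in GATA6KO. The log2 fold change was -0.09 (95% interval -0.35 to 0.18) for Etfa and 0.06 (95% interval -0.16 to 0.28) for Etfb. Of the 31-base words of Etfb, 49.9% also occur in the overlapping gene Gm45233 or other transcripts, so its counts are uncertain. Etfdh, the oxidoreductase that passes the electrons to ubiquinone, measured 54.8, 62.3 and 59.0 CPM in Control and 68.4, 64.5 and 72.2 CPM in GATA6KO, without overlap and uncalled (log2 fold change 0.22, edgeR adjusted p = 0.159).

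Taking the carnitine shuttle, the cycle, the helper enzymes and the flavoprotein as the 16 mitochondrial oxidation enzymes, 0 were called by edgeR, against 12.4% of all genes tested. Of the 16, 3 (18.8%) had an unadjusted edgeR p under 0.05, against 31.7% of all genes tested. The median log2 fold change of the 16 was -0.08. In 11 of the 16 the 95% interval, not adjusted for the number of genes, excluded a change of 1.5-fold or more in either direction. Cpt2, Acadl, Acads, Echs1 and Decr1 had intervals that reached past that size. In simulated counts for this comparison the test found 4% of 50 genes changed by 1.5-fold and 50% of 50 changed by 2-fold. The simulation changed few genes and gave both groups the same spread, unlike these data. Its shares therefore do not give the chance of calling these enzymes, and an uncalled enzyme may still have changed by a small amount.

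**Figure D3:**
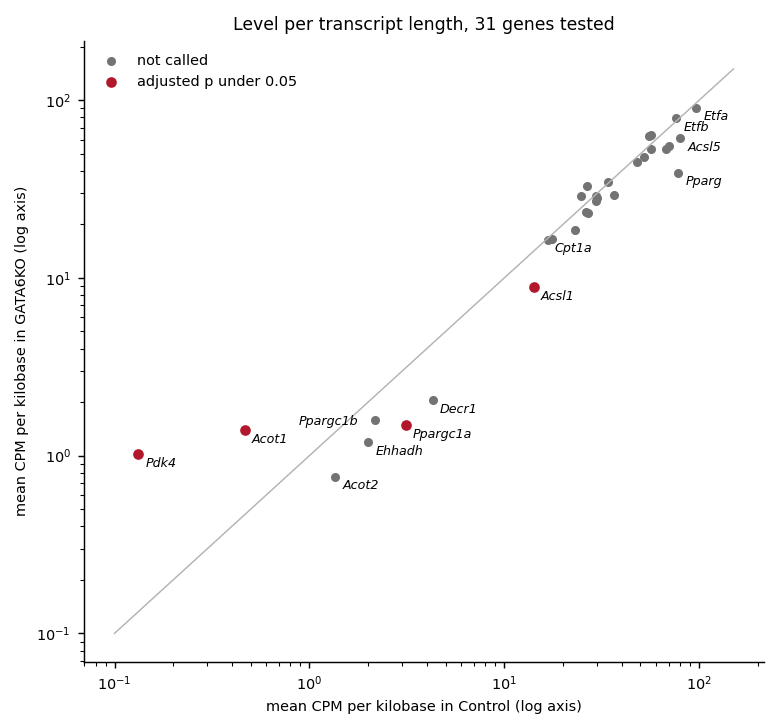
Mean CPM per kilobase of principal transcript in Control (x axis) and GATA6KO (y axis), both on log axes, for the 31 genes tested, with the line of equal level. Most oxidation enzymes lie near the line, with Etfa highest (96.4 in Control), and the called genes Pdk4 (0.132 in Control), Acot1 (0.466) and Ppargc1a (3.12) lie low.

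In the peroxisome, where very long and branched chains are shortened, Ehhadh, the bifunctional enzyme and a strong PPAR-alpha target in liver, measured 6.05, 5.23 and 6.74 CPM in Control and 4.65, 0.820 and 5.17 CPM in GATA6KO. Replicate 2 lay far below the rest, and the 95% interval was wide (log2 fold change -0.76, -2.18 to 0.66, edgeR adjusted p = 0.42). The thiolase Acaa1a measured 51.2 to 52.6 CPM in Control and 42.2 to 56.2 CPM in GATA6KO (log2 fold change -0.13, 95% interval -0.42 to 0.17). Its paralog Acaa1b had at most 1 count in a library, and of the 31-base words of Acaa1a 18.1% occur in other genes, most often in Acaa1b.

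The thioesterases Acot1 and Acot2, which free fatty acids from acyl-CoA in the cytosol and in mitochondria, lie next to each other on chromosome 12 and differed in direction. Acot1 (ENSMUSG00000072949, 84009490 to 84018371) measured 1.40, 1.04 and 0.734 CPM in Control (32, 30 and 22 counts) and 3.41, 3.31 and 2.77 CPM in GATA6KO (102, 101 and 83 counts). The groups did not overlap, with means of 1.06 ± 0.335 and 3.16 ± 0.346 CPM (SD, n = 3 each) and a log2 fold change of 1.58 (SE 0.31, edgeR adjusted p = 0.0244, and 0.0566 with a replicate block). Acot2 had 64, 101 and 79 counts in Control and 78, 29 and 44 in GATA6KO, and was not called (log2 fold change -0.83, 95% interval -1.78 to 0.12, edgeR adjusted p = 0.207). The transcripts are near-identical in part: 22.7% of the 31-base words of Acot1 also occur in another gene's transcripts, and 37.3% of those of Acot2, in both cases most often in the other of the pair. How estimated counting divided such reads is uncertain. The pair summed to 96, 131 and 101 counts in Control and 180, 130 and 127 in GATA6KO, 4.04 ± 0.604 and 4.84 ± 1.02 CPM (SD, n = 3 each), and the sums overlapped.

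Pdk4 had the largest fold change of the 31 genes tested. Pdk4 (ENSMUSG00000019577, chromosome 6, 5483351 to 5496309), a kinase that shuts pyruvate dehydrogenase when fat is burned and a common PPAR target, measured 0.657, 0.555 and 0.167 CPM in Control (15, 16 and 5 counts) and 3.11, 5.08 and 2.43 CPM in GATA6KO (93, 155 and 73 counts). Every GATA6KO library was above every Control library, with means of 0.460 ± 0.259 and 3.54 ± 1.38 CPM (SD, n = 3 each) and a log2 fold change of 2.95 (SE 0.55, edgeR adjusted p = 0.02). In Control 2 of 3 libraries reached the filter's minimum, and in GATA6KO all 3. The filter asked for 3 libraries, so the Control libraries alone would not have admitted the gene. Pdk4 was tested with the help of the group where it is high, which limits what its adjusted p supports. Its level remained low in both groups, at 0.132 and 1.02 CPM per kilobase.

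The other PPAR targets were uncalled or untested. Plin2, which coats lipid droplets, measured 96.8, 95.8 and 104 CPM in Control and 105, 73.2 and 93.4 CPM in GATA6KO (log2 fold change -0.12, 95% interval -0.46 to 0.21, edgeR adjusted p = 0.584). Angptl4, a secreted lipase inhibitor and among the most PPAR-responsive genes of gut epithelium, had 1, 0 and 0 counts in Control and 0, 3 and 1 in GATA6KO. Bdh1, which interconverts the 2 main ketone bodies, measured 113 to 117 CPM in Control and 113, 60.8 and 100 CPM in GATA6KO, with replicate 2 lowest (log2 fold change -0.33, 95% interval -0.84 to 0.19, edgeR adjusted p = 0.34).

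The GATA6KO libraries differed among themselves in a common order over these genes. Of the 31 genes tested, 24 (77.4%) were highest of the 3 GATA6KO libraries in replicate 1, as were 37.5% of all genes tested, and 20 (64.5%) were lowest in replicate 2, as were 35.3% of all genes. On the scale of log2 of CPM + 0.1, the median ratio to the Control mean was 0.10 in GATA6KO replicate 1, -0.29 in replicate 2 and -0.21 in replicate 3. Over all genes the same medians were -0.01 to 0.00. The 16 mitochondrial enzymes showed the order too: 13 were above the Control mean in replicate 1, and 13 and 12 were below it in replicates 2 and 3.

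The spread within a group differed accordingly. The median coefficient of variation over the 31 genes was 4.30% in Control and 17.9% in GATA6KO, and over all genes it was 6.63% and 19.5%. Without GATA6KO replicate 1, 12 of 32 genes tested were called (3 higher and 9 lower), in a fit that called 28.8% of all genes, among them Pparg, Ppard, Acadl, Echs1, Acsl4, Acaa1a and Acot2 on the lower side. The higher side included Cd36. That gene entered the fit only through the GATA6KO libraries, where it is high, so its call is no support for the difference. Groups did not overlap in 15 of the 31 genes (48.4%), 10 lower and 5 higher, against 40.8% of all genes tested (20.5% lower and 20.3% higher).

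**Figure D4:**
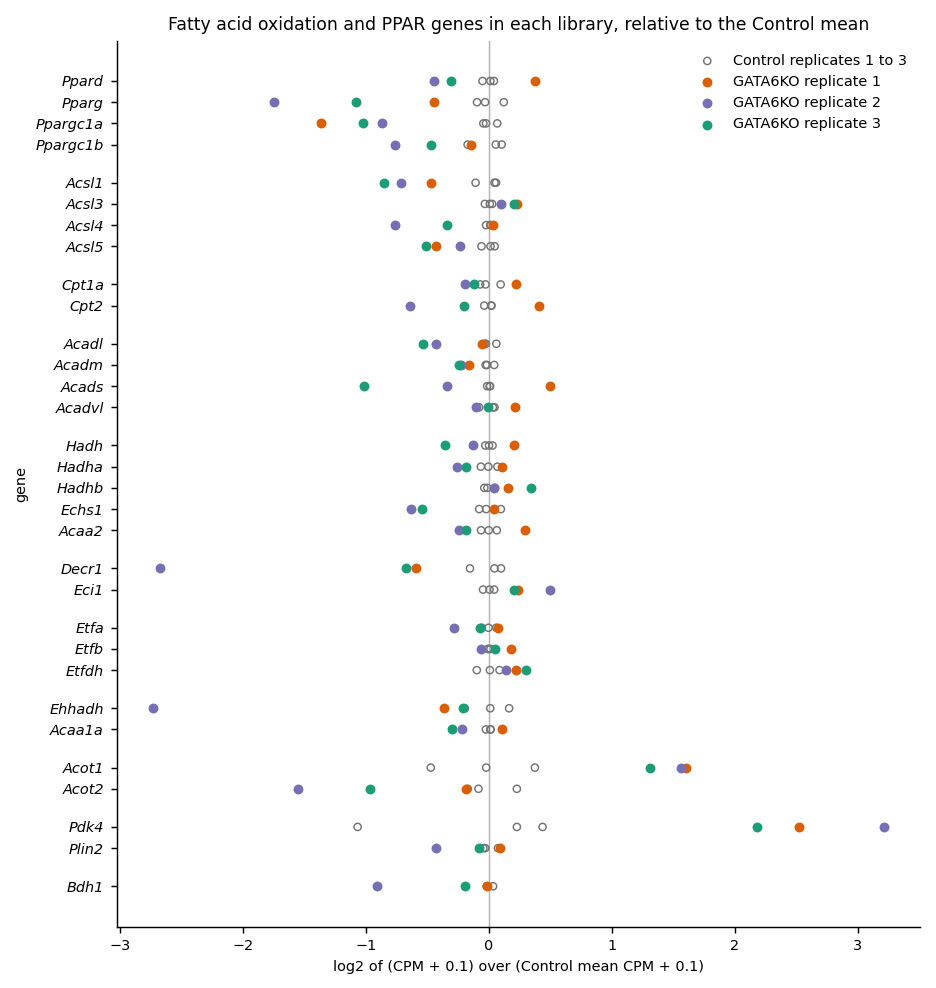
log2 ratio of each library's CPM + 0.1 to the Control mean CPM + 0.1 for the 31 genes tested, with Control libraries as open circles and GATA6KO replicates 1, 2 and 3 in orange, purple and green. Orange is rightmost of the GATA6KO points in 24 of 31 genes and purple leftmost in 20 of 31, while the open circles stay close together except in the low-count genes Acot1, Acot2 and Pdk4.

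The rest of the pathway was read from 102 other genes of carnitine handling, oxidation, ketone metabolism, fatty acid binding, lipid droplets and the partners of PPARs. Of these, 79 were tested, and 4 were higher and 3 lower. That is 8.86% of those tested, against 12.4% of all 14714 genes tested (6.92% higher and 5.47% lower). The median log2 fold change of the 79 was -0.02. All 6 genes of carnitine handling were uncalled, as were all 11 tested genes of the peroxisome, all 5 of ketone metabolism and all 6 other thioesterases. At the share over all genes, lists this short would hold few calls or none. Only Fabp5 and Creb3l3 of the 7 called genes were also called when any of the Control libraries was left out (adjusted p of 0.0306 to 0.039). The other 5 reached adjusted p of 0.0594 to 0.168 there. Creb3l3 passed the filter only through the Control libraries, where it is high, so its adjusted p in these fits is no support for the difference.

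Of 9 tested genes in the list of further synthetases and uptake genes, 2 fatty acid binding proteins, which carry fatty acids to membranes and to PPARs, rose and 7 were uncalled. Fabp5, the epithelial and epidermal form, measured 26.7, 28.0 and 30.1 CPM in Control and 65.7, 62.0 and 90.3 CPM in GATA6KO (log2 fold change 1.36, SE 0.16, edgeR adjusted p = 0.005). Fabp4, the adipocyte form and a PPAR-gamma target in fat, measured 2.59, 3.26 and 2.90 CPM in Control and 25.7, 84.2 and 18.3 CPM in GATA6KO (log2 fold change 3.87, SE 0.62, edgeR adjusted p = 0.013, and 0.0739 with no filter). Both were above Control in every GATA6KO library, and replicate 2 was highest for Fabp4, as it was for Cd36. The adipocyte markers Adipoq and Lep had at most 1 count in any library.

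Creb3l3, Cidec and Hnf4g fell to near 0. Creb3l3, a transcription factor of liver and gut that acts with PPAR-alpha on lipid genes, had 61, 73 and 78 counts in Control and 3, 0 and 1 in GATA6KO (edgeR adjusted p = 0.00444). Cidec, a lipid droplet protein, had 42, 57 and 53 counts in Control and 3, 1 and 8 in GATA6KO (edgeR adjusted p = 0.0115). Hnf4g, an intestinal nuclear receptor, had 56, 67 and 71 counts in Control and 10, 1 and 5 in GATA6KO (edgeR adjusted p = 0.0136). These 3 genes passed the filter through the Control libraries alone, where they are high. Their adjusted p in the main test is therefore no support for the difference. Hnf4a, the better known paralog of Hnf4g and an activator of oxidation genes in gut, measured 330, 332 and 320 CPM in Control and 138, 120 and 239 CPM in GATA6KO, and was not called (edgeR adjusted p = 0.0501).

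The 2 other called genes rose by less, and neither was called with a replicate block (adjusted p of 0.0601 for Pdp1 and 0.119 for Mcee). Pdp1, the phosphatase that reverses the action of the Pdk kinases on pyruvate dehydrogenase, measured 31.9, 29.9 and 32.1 CPM in Control and 42.2, 48.9 and 54.9 CPM in GATA6KO (log2 fold change 0.64, SE 0.12, edgeR adjusted p = 0.0206). Of the Pdk genes outside the set of 34, Pdk1, Pdk2 and Pdk3 were uncalled, and Pdk1 measured 354, 356 and 390 CPM in Control and 362, 113 and 249 CPM in GATA6KO. Mcee encodes the epimerase of methylmalonyl-CoA, which is made from the propionyl-CoA left by odd-numbered chains. It measured 9.64, 10.5 and 10.8 CPM in Control and 16.1, 13.7 and 16.8 CPM in GATA6KO (log2 fold change 0.59, SE 0.14, edgeR adjusted p = 0.0394). Mcee was not called with no filter (adjusted p = 0.068) or without GATA6KO replicate 3 (adjusted p = 0.0696).

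**Figure D5:**
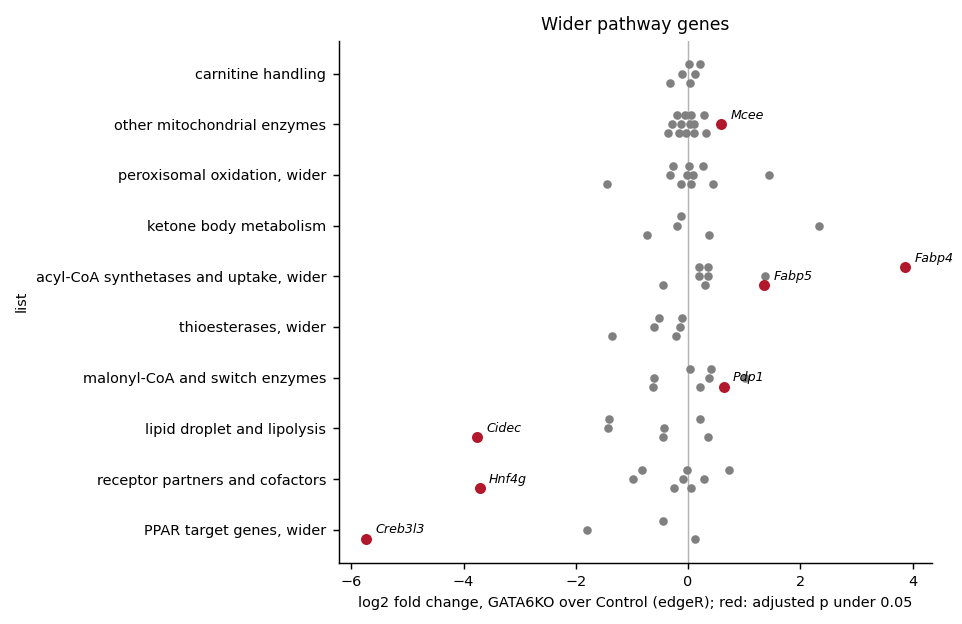
log2 fold changes (GATA6KO over Control, edgeR) of the 79 tested genes of the wider pathway, by list, with called genes in red and named. Fabp4 and Fabp5 lie to the right, Creb3l3, Cidec and Hnf4g to the left, and most others lie near 0.

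Promoters of the called genes and of Pparg are shown because the set was defined by PPAR control and the genotype label names a GATA factor. RefSeq (GRCm38.p6) gave 34 promoters, each from 250 bases before to 50 after a start, for 30 of the 34 genes. They were searched on both strands for the PPAR response element (AGGTCA, any base, AGGTCA), its half-site AGGTCA, which the element contains, and the GATA sites AGATAA and TGATAA. Sequences run 5′ to 3′ along the gene's strand, and capitals mark matches on either strand.
Ppargc1a, chr5:51567676-51567975, minus strand: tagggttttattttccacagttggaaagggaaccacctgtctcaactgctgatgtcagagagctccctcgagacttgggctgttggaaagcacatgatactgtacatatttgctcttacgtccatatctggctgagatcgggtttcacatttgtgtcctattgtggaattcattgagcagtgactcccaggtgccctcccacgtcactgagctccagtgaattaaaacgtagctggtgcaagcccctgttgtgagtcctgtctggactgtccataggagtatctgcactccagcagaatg
Acsl1, first of its 2 starts, chr8:46470787-46471086, plus strand: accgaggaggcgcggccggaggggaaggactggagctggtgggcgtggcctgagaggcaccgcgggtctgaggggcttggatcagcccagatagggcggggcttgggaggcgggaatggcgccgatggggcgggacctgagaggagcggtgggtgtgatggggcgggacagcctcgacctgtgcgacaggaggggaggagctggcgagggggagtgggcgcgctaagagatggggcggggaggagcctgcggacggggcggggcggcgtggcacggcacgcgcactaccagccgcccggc
Acot1, chr12:84009252-84009551, plus strand: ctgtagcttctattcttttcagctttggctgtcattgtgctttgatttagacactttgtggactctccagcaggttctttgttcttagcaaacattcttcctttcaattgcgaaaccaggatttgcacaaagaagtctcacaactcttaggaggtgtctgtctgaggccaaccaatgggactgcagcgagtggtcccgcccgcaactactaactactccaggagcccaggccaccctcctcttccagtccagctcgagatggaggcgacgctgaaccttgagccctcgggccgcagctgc
Pdk4, chr6:5496229-5496528, minus strand: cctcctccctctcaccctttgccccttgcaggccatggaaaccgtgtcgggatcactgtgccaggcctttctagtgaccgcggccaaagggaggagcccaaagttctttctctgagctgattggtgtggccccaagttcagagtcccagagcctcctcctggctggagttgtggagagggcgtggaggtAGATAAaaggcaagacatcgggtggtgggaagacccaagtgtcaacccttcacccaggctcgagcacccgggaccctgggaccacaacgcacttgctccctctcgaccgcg
Pparg, first of its 3 starts, chr6:115360894-115361193, plus strand: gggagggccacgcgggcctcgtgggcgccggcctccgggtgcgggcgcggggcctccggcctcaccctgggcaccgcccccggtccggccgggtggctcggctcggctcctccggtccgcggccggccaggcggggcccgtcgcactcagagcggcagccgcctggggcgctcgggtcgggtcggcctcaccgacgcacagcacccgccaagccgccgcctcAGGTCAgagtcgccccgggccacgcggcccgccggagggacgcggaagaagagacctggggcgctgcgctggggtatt

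The full element was in 0 of the 34 promoters and in 0.0396% of 32851 promoters of all genes. The half-site was in 8 of the 34 (23.5%, against 16.3% of all), those of Acadm, Acadvl, Cd36, Cpt1a, Echs1 and Plin2 and 2 of the 3 of Pparg. AGATAA was in the promoters of Pdk4 and Acadvl (5.88%, against 11.2% of all) and TGATAA in that of Bdh1 (2.94%, against 9.05%). Of the 4 called genes, Pdk4 alone held any of these motifs, an AGATAA starting at base 190 of the window. A match describes letters only, and a window without one says only that these letters are not in it.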

How the data were processed

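Poly(A)-selected RNA was made into strand-marking libraries, per the labels' protocols. The authors deposited estimated counts per gene in whole numbers. The submitters' processing notes list Salmon 1.3.0 and mm10 but not what each was used for. How transcripts were summed to genes, with which annotation, and whether strand was used is not given in the sources used here.

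Groups and replicate numbers came from sample titles. Of 54418 identifiers, 54166 matched GENCODE M21, which gave symbols, coordinates and principal transcript lengths. No libraries held the same values. Genes passing edgeR's filterByExpr (14714) were scaled by TMM and compared by the quasi-likelihood test with robust estimation, with Benjamini-Hochberg adjustment over all of them and a threshold of 0.05. The SE is the log2 fold change divided by the square root of F, and CPM is TMM-scaled. The software was edgeR 4.0.16 under R 4.3.3, with DESeq2 1.42.0 and limma 3.58.1 for alternatives, and the fit was tested on simulated counts. Alternatives changed the scaling, tool, filter, robust estimation and replicate block, or left out 1 library.

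The members and lists were chosen with earlier results of these data known. Members were named in full when called or regulators, with examples by abundance for other roles. Called pathway genes were named when at 1 CPM or more in a group. Values of further members, Hnf4a, Pdk1 and the genes of the closing observations were added after they were seen.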

Additional observations from a re-analysis of the deposited data

How the results depend on the processing

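Of 14714 genes, 1823 were called by the main test, 3238 by DESeq2 and 827 with a replicate block, and 332 to 4360 when 1 library was left out. Of the 34 genes, 4 were called by the main test, 2 with the replicate block (Ppargc1a and Pdk4), and 0 to 12 when 1 library was left out: 0 without any of the Control libraries and 12 without GATA6KO replicate 1. Those 12 include Cd36, which entered that fit only through the GATA6KO libraries. Of the wider pathway, 7 were called by the main test, 18 by DESeq2, 11 by voom with a spread per group, and 2 to 23 when 1 library was left out. The causes were not tested. Same-numbered libraries did not deviate together (correlations of -0.0103, 0.0744 and -0.0921), so the numbers were not taken as pairs. The median log2 fold change of those of the 34 genes that each fit tested, 31 to 34 by fit, ran from -0.25 to -0.05 over all alternatives.

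Scaling by library total alone gave a log2 fold change of 0.05 for Cpt1a and 0.05 for Acaa2, against -0.02 and -0.03. Leaving out 1 library changed the sign of uncalled genes near 0, with log2 fold changes from -0.37 to 0.07 for Ppard, -0.16 to 0.06 for Cpt1a, -0.41 to 0.13 for Cpt2, -0.64 to 0.14 for Acads, -0.05 to 0.11 for Acadvl, -0.24 to 0.04 for Hadh, -0.22 to 0.07 for Acaa2, -0.18 to 0.00 for Etfa, -0.01 to 0.11 for Etfb and -0.25 to 0.01 for Plin2.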

Other observations

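Several uncalled lipid genes had GATA6KO replicate 1 nearer to Control than replicates 2 and 3, and they were picked after their values were seen. Hilpda, an inhibitor of lipolysis, measured 84.7, 90.8 and 100 CPM in Control and 65.7, 16.4 and 21.7 CPM in GATA6KO replicates 1 to 3 (edgeR adjusted p = 0.11). Lpin1, a phosphatidate phosphatase and PGC-1-alpha partner, measured 54.8, 51.5 and 65.9 CPM in Control and 62.7, 15.1 and 19.6 CPM in GATA6KO (edgeR adjusted p = 0.312). Fgf21, a hormone under PPAR-alpha control in liver, had 23, 32 and 32 counts in Control and 21, 3 and 3 in GATA6KO (edgeR adjusted p = 0.144). Replicate 1 thus overlapped Control for Lpin1 and lay below it for Hilpda and Fgf21.

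Peroxisomal genes showed another order. Acox2, an oxidase of branched chains, measured 27.1, 26.8 and 31.5 CPM in Control and 13.1, 2.85 and 15.4 CPM in GATA6KO, with replicate 2 lowest (edgeR adjusted p = 0.124). Phyh, which starts the breakdown of phytanic acid, measured 8.85, 9.05 and 7.17 CPM in Control and 30.6, 8.85 and 28.5 CPM in GATA6KO, where replicate 2 lay within Control (edgeR adjusted p = 0.0788).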
